A study of Mus musculus with 21 samples.

Results

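Lecticans, tenascins and neural proteoglycans are the large sugar-bearing molecules and adhesion glycoproteins that fill the space between brain cells. Every array probe annotated to Acan, Bcan, Ncan, Vcan, Cspg5, Ptprz1, Tnc, Tnr or Hapln1 in the scanner table was taken, which gave 25 of 45281 probes. They fell on 9 of the 19057 genes with a probe of their own, with 7 probes for Tnc, 6 for Vcan, 3 for Bcan, 2 each for Acan, Cspg5 and Ptprz1, and 1 each for Ncan, Tnr and Hapln1. The study converted mouse fibroblasts into self-renewing neural stem cells and measured total RNA on Illumina MouseWG-6 V2 bead arrays, 21 arrays for 6 lines.

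The converted cells were 3 clones, with 3 arrays of iNS2 and 4 each of iNS3 and iNS5, each 1 clonal line derived from Oct4-GiP mouse embryonic fibroblasts (Oct4-GFP in the sample titles). The labels name no conversion factors. NS (3 arrays) was a control line of neural stem cells, given as primary cells of the mouse forebrain. ES (3 arrays) was an embryonic stem cell line, whose source label repeats that of the fibroblasts. MEF (4 arrays) was the Oct4-GiP embryonic fibroblasts, which carry an Oct4 reporter as the clones do and served as the baseline of the study. The arrays of a line are technical replicates, so p-values between lines measure technical spread, and no line has separate cultures.

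Lecticans (aggrecan, brevican, neurocan and versican) are chondroitin sulfate proteoglycans whose one end binds hyaluronan and whose other end binds tenascins, and link proteins such as Hapln1 clamp them to hyaluronan. Cspg5 and Ptprz1 are membrane-bound chondroitin sulfate proteoglycans of the nervous system. Tenascin-C is made by radial glia and neural stem cells in the germinal zones, and also by fibroblasts in growing or healing tissue. Bcan, Ncan and Ptprz1 are known from the glia and neural progenitors of the brain, whereas Vcan and Tnc are also made by mesenchymal cells.

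The start regions of 4 genes are shown because Bcan, Ncan and Ptprz1 were higher and Tnc lower in the neural lines than in MEF. Each runs from 250 bases before to 50 after a RefSeq transcription start on build GRCm38.p6. Capitals mark matches, on either strand, to ACAAAG (a core letter run bound by SOX factors), CAGCTG (an E-box) or TGCCAA (a core of NFI sites). These motifs do not overlap each other.
Bcan, chr3:88000307-88000606, minus strand: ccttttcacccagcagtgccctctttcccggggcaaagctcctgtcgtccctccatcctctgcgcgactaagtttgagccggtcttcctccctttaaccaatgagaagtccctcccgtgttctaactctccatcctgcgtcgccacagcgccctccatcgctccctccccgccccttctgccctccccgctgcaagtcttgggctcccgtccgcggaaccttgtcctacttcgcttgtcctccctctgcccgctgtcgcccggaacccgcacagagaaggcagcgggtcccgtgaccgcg
Ncan, chr8:70120795-70121094, minus strand: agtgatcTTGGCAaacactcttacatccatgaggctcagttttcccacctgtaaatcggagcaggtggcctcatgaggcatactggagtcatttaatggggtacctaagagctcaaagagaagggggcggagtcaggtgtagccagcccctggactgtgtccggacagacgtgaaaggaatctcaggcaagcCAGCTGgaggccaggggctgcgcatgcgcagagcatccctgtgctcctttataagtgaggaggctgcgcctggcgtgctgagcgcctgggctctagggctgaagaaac
Ptprz1, chr6:22875252-22875551, plus strand: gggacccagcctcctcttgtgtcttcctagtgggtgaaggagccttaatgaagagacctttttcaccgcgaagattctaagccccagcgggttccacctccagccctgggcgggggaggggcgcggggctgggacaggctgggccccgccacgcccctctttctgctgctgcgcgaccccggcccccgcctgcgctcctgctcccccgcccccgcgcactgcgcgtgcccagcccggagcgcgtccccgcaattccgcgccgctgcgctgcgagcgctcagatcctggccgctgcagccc
Tnc (second of 2 start sites), chr4:64046887-64047186, minus strand: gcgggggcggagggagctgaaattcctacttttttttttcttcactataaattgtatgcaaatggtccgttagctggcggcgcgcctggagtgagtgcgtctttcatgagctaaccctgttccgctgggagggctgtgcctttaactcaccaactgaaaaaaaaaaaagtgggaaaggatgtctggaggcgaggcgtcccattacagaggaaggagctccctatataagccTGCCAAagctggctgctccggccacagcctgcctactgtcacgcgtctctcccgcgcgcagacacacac
The Ncan window held an E-box whose first base lay at -58 from the start and an NFI core on the opposite strand at -243, and the printed Tnc window held an NFI core at -19. The first Tnc start window, which overlaps it, held none of the 3 letter runs (47.3% G or C, 10 CpG pairs). The Bcan and Ptprz1 windows held none of the 3 letter runs. Among all 32851 mouse start windows of that length, 16.3% held CAGCTG, 14.1% held TGCCAA and 18.7% held ACAAAG or its complement. Matches are a description of letters only. RefSeq start windows were matched for 8 of the 9 genes, all but Cspg5. Of the genes not printed, Acan held an E-box at -179 and Tnr a SOX core on the opposite strand at -220. Neither of these genes was above background on any array. The Vcan and Hapln1 windows held no match. The Ptprz1 window was 71.7% G or C with 29 CpG pairs and the Bcan window 64.0% with 24. The Ncan window was 56.7% G or C with 9 CpG pairs and the printed Tnc window 54.0% with 16, against a median of 52.7% and 7 over all windows.

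A probe counted as above background on an array where the deposited detection p-value was under 0.01. Of the 25 probes, 18 passed this on all arrays of some line and were tested. Levels below are neqc-normalised log2 values, and a dim probe near 4.5 lies under the dimmest detected probe of its array, which sat between 5.29 and 5.65. Levels of different probes are not comparable, because probes differ in brightness at equal RNA. Of the tested probes, 6 did not pass through MEF at all, and 4 (3 Vcan, 1 Tnc) passed through MEF alone, so those had to differ between lines and their calls are given as description.

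In MEF, 7 of the 8 fibroblast markers (Col1a1, Col1a2, Col3a1, Thy1, Lum, Postn, Pdgfrb, Fap) were above background on all arrays, and their summed scaled intensity was 48134.9 to 48537.8. None of the 8 was above background on any clone or NS array, where the sum reached 43.2 in the clones and 28.6 in NS. Of 7 neural stem cell markers with a probe, 6 were above background on all clone and NS arrays, and Pax6 was on none. Of these 7, 4 were also above background on all ES arrays and 2 on all MEF arrays. Their summed intensity reached 1280.8 in ES and 984.2 in MEF, against at least 53081.4 in the clones and NS. All 6 pluripotency markers were above background on all ES arrays, as were 2 of 6 in NS and 1 of 6 in each clone. Their sum was at least 69012.7 in ES and reached 112.3 in NS and 192.4 in the clones. The number of probes above background was 14407 to 16021 per array, and log2 levels of arrays of a line correlated at 0.991 to 0.996 across probes.

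**Figure D1:**
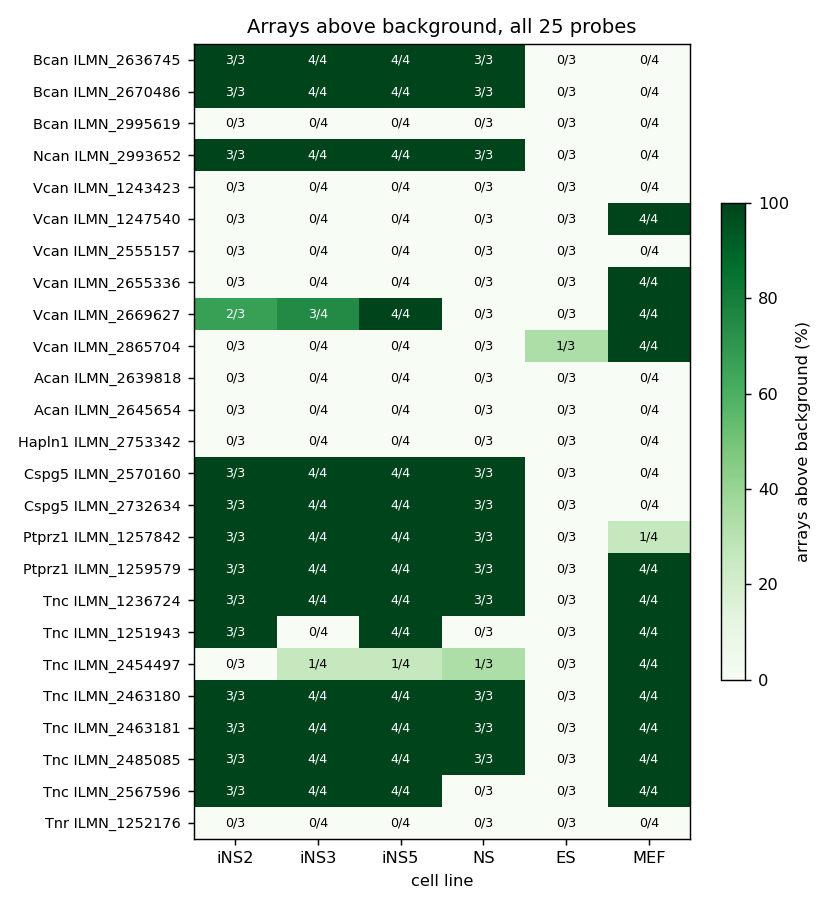
Number of arrays above background (detection p under 0.01) out of all arrays of a line, for all 25 probes (down) and the 6 lines (across), with darker green for a higher percentage. The Ncan probe, both Cspg5 probes and 2 of 3 Bcan probes fill the clone and NS columns, 3 of 6 Vcan probes fill the MEF column alone, and Acan, Hapln1 and Tnr stay empty.

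Of the 18 tested probes, 7 were higher and 11 lower in the clones than in MEF, where 43.3% of all 15972 tested probes were called (22.3% higher, 20.9% lower). Bcan, Ncan, Cspg5 and Ptprz1 gave the 7 higher probes, and Tnc and Vcan the 11 lower ones. By the detection filter, 6 of the higher and 4 of the lower probes had to differ between lines. The count of 18 is thus given as description. The 8 that passed through MEF and other lines were Ptprz1 ILMN_1259579, higher, and Vcan ILMN_2669627 and all Tnc probes but ILMN_2454497, lower. The median difference of the 18 was -1.71 on the log2 scale, against 0.14 over all tested probes. That median counts probes, 11 of them of Tnc or Vcan. By gene, the median over probes was 6.16 for Bcan, 5.91 for Ncan, 5.41 for Cspg5 and 3.01 for Ptprz1. It was -1.90 for Vcan and -2.52 for Tnc. NS against MEF also gave 7 higher and 11 lower, where 32.2% of probes were called, with a median of -1.91 against 0.13 (16.4% of probes higher, 15.8% lower). Those comparisons share the MEF arrays. In bulk RNA, a lower level per cell and a smaller share of expressing cells cannot be told apart. Clone tests used 1 mean per line with 3 clones as replicates in limma, and tests between lines asked limma's treat for more than a 2-fold change, both adjusted over all tested probes.

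Brevican (Bcan) was at background in MEF and ES and bright in every clone and in NS. Probe ILMN_2670486 lay between 11.37 and 11.66 on the 11 clone arrays, with a median of 11.51. Its levels were 10.996, 10.93 and 11.15 in NS, 4.72, 4.35 and 4.55 in ES, and 4.53, 4.56, 4.53 and 4.43 in MEF. Clone and MEF arrays did not overlap, and no MEF or ES array was above background. The clone mean was at least 61.4-fold above MEF (log2 difference 6.99 ± 0.17 SE, 3 clones, limma adjusted p = 0.00045), and NS at least 44.0-fold (6.52 ± 0.08 SE, treat adjusted p = 1.7e-21). A second probe, ILMN_2636745, lay at 9.72 to 10.19 on the clone arrays and 9.71, 9.84 and 9.82 in NS, against 4.48 to 4.72 in MEF. The clones exceeded MEF at least 20.3-fold on it (limma adjusted p = 0.00063). Both probes passed the detection filter only through the clones and NS, so these p-values are given as description. The remaining Bcan probe, ILMN_2995619, was above background on no array.

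**Figure D2:**
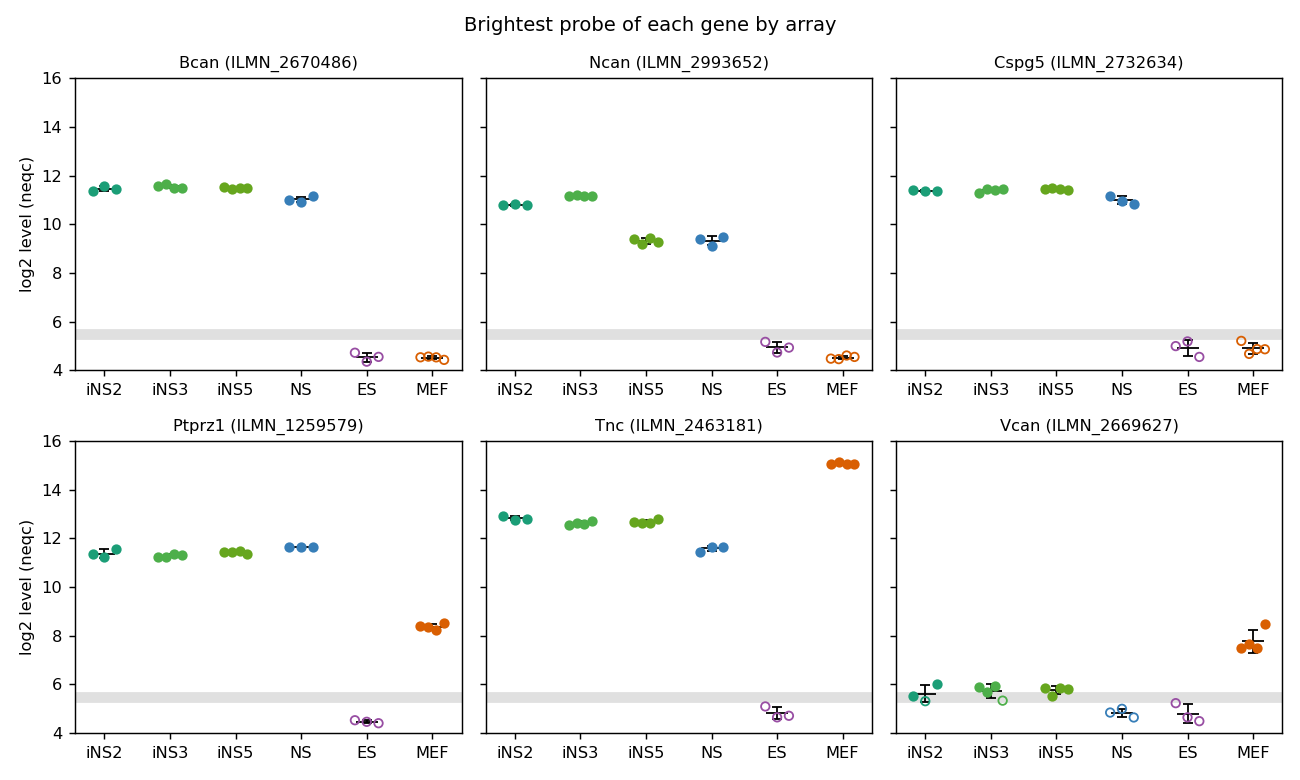
Log2 level (vertical axis, neqc) of the brightest probe of each of 6 genes on every array of the 6 lines (horizontal axis), with filled points above background and open points not, bars at mean ± SD of a line, and a grey band at the range of the dimmest detected probe per array. Bcan, Ncan and Cspg5 are open in ES and MEF, Ptprz1 is lower but filled in MEF, and Tnc is highest in MEF near 15.

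Neurocan (Ncan), the other brain lectican, was on and off in the same lines and varied most between clones, with an SD of 0.98 over the 3 clone means, against 0.03 to 0.55 for the other tested probes. Its probe ILMN_2993652 gave 10.78, 10.83 and 10.79 in iNS2, and 11.15, 11.20, 11.16 and 11.17 in iNS3. It read 9.41, 9.19, 9.42 and 9.26 in iNS5 and 9.40, 9.13 and 9.46 in NS. ES read 5.17, 4.73 and 4.93 and MEF 4.48, 4.46, 4.60 and 4.55, all at background. The iNS5 and NS arrays overlapped, whereas those of iNS2 and iNS3 lay apart from both and from each other. Clones exceeded MEF at least 29.1-fold (5.91 ± 0.80 SE, limma adjusted p = 0.0077) and NS exceeded MEF at least 13.6-fold (treat adjusted p = 3.9e-18). Since the probe passed the detection filter only through the clones and NS, these p-values against MEF are given as description.

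Relative to NS, Ncan was 2.77-fold higher in iNS2 (log2 difference 1.47 ± 0.10 SE, treat adjusted p = 0.0049) and 3.57-fold higher in iNS3 (1.84 ± 0.09 SE). In iNS5 the difference from NS was -0.01, with a 95% interval of -0.20 to 0.18. Between clones, Ncan was 3.60-fold higher in iNS3 than in iNS5 (1.85 ± 0.09 SE, treat adjusted p = 3.8e-07) and 2.79-fold higher in iNS2 than in iNS5 (1.48 ± 0.09 SE, adjusted p = 0.0024). Slides moved with these lines, since iNS2 and most of iNS3 shared slide 2 and most of iNS5 lay on slide 3. The arrays of iNS3 and iNS5 that shared slide 4 differed by 1.75, with 1 array each (treat adjusted p = 0.26), and on slide 4 the 1 iNS3 array lay 1.84 above NS (adjusted p = 0.15). For iNS3 against iNS5, slide as a fixed block also gave 1.75 (adjusted p = 0.023). iNS2 shared no slide with iNS5 or NS, and with slide as a block its differences of 1.38 from iNS5 and 1.46 from NS were not called by treat (adjusted p = 1.0 and 0.62). Without NS replicate 2 the iNS2 difference from NS was 1.37 (treat adjusted p = 0.051). Scaling arrays to a common median also ended the iNS2 to iNS5 call (1.305, treat adjusted p = 0.51). The summed intensity of 6 astrocyte markers was 124.9 to 159.1 in iNS2, 193.0 to 252.1 in iNS3, 352.4 to 385.2 in iNS5 and 113.1 to 133.1 in NS, and their part in the Ncan differences was not tested.

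Versican (Vcan), the widely expressed lectican of mesenchyme and early brain, went the other way. Probe ILMN_1247540 was at background on all clone arrays (4.55 to 5.06), and in NS (4.49, 4.53 and 4.69) and ES (5.08, 4.71 and 4.90), against 7.36, 7.41, 7.38 and 7.30 in MEF. The clones were at least 3.91-fold and NS at least 3.84-fold lower than MEF (limma adjusted p = 0.0015 and treat adjusted p = 3.3e-11). Only MEF arrays carried signal on it. It passed the detection filter through MEF alone, so these p-values are given as description. Probe ILMN_2669627 was above background on 9 of 11 clone arrays, at 5.30 to 6.01 with a median of 5.81, on no NS array (4.84, 4.99 and 4.63) and on all MEF arrays (7.48, 7.65, 7.48 and 8.47). Clones were at least 4.12-fold lower than MEF on it (-2.07 ± 0.18 SE, limma adjusted p = 0.0027). The clones also lay 0.87 above NS on this probe with no overlap of arrays, but the difference was not called (95% interval 0.39 to 1.36, limma adjusted p = 0.60).

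The other tested Vcan probes were dim. They too passed the detection filter through MEF alone, so their calls are given as description. ILMN_2655336 averaged 4.61 over the clones against 6.33 in MEF (-1.72 ± 0.17 SE), and ILMN_2865704 averaged 5.09 against 6.43 (-1.35 ± 0.18 SE). Both were called in limma (adjusted p = 0.0039 and 0.0075), but ILMN_2865704 was not called without iNS2 (-1.32, adjusted p = 0.060). Within slide 4, with 1 array each of iNS3, iNS5 and MEF and none of iNS2, neither was called (-1.24 and -1.25). ILMN_2865704 was also the 1 member not called in iNS3 against MEF (treat adjusted p = 0.075), and was called without iNS3 replicate 3 (adjusted p = 0.050). In NS against MEF, ILMN_2655336 (-1.48, treat adjusted p = 0.023) was not called without MEF replicate 2 or 3 (adjusted p = 0.064 and 0.066) or NS replicate 2 or 3 (0.067 and 0.20). It was not called within slide 4 either, where its difference was -1.06, or with arrays scaled to a common median (-1.32, adjusted p = 0.094). In iNS2 against MEF, ILMN_2865704 was not called without iNS2 replicate 2 (adjusted p = 0.14). Vcan ILMN_1243423 and ILMN_2555157 were above background on no array.

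Aggrecan (Acan), the lectican of cartilage and of perineuronal nets, was above background on no array with either probe. Its scanner signals were 102 to 165.6 and its lowest detection p was 0.074. All 6 cartilage markers (Col2a1, Col9a1, Matn1, Matn3, Comp, Col11a2) were above background on no iNS3, iNS5, NS or MEF array, whereas 4 of 6 were on no iNS2 array and 2 of 6 were above background on all ES arrays. Hapln1, the link protein that joins lecticans to hyaluronan, read 112.1 to 149.3 (lowest detection p 0.27). Tenascin-R (Tnr), the tenascin of oligodendrocytes and interneurons, read 124.7 to 165.1 (lowest detection p 0.038). A probe that is not above background gives only an upper bound on its RNA.

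Cspg5 (neuroglycan C), a membrane proteoglycan with an EGF-like domain found on neurons and glia, followed Bcan. Probe ILMN_2732634 lay at 11.30 to 11.50 on the clone arrays, with a median of 11.42. NS read 11.17, 10.94 and 10.84, ES 4.99, 5.18 and 4.55, and MEF 5.21, 4.67, 4.87 and 4.86. No ES or MEF array was above background, and the clone and NS arrays did not overlap. The clones were at least 57.4-fold above MEF (6.51 ± 0.17 SE, limma adjusted p = 0.00045) and NS at least 42.7-fold (6.08 ± 0.12 SE, treat adjusted p = 4.7e-18). The second probe, ILMN_2570160, annotated to transcript AK053891, lay at 8.68 to 8.999 in the clones and at 8.63 to 8.75 in NS, against 4.44 to 4.76 in MEF. The clones were at least 9.86-fold above MEF on it (limma adjusted p = 0.00071). Both Cspg5 probes passed the detection filter only through the clones and NS, so their p-values against MEF are given as description.

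Ptprz1, a receptor-type tyrosine phosphatase whose secreted form is the proteoglycan phosphacan, was the only member higher in the clones that also had signal in MEF. Probe ILMN_1259579 lay at 11.22 to 11.56 on the clone arrays, with a median of 11.35, and at 11.65, 11.63 and 11.65 in NS. MEF read 8.40, 8.36, 8.22 and 8.52, all above background, and ES 4.52, 4.46 and 4.40, all at background. The lines thus fell into 3 levels, neural lines, MEF and ES, with no overlap between the 3. The clones were 7.94-fold above MEF (2.99 ± 0.18 SE, limma adjusted p = 0.0012) and NS 9.66-fold (3.27 ± 0.08 SE, treat adjusted p = 7.2e-16). ES was at least 7.77-fold below MEF (treat adjusted p = 1.1e-17).

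The second Ptprz1 probe, ILMN_1257842, is annotated to another transcript, AK086221, and its order among clones was not that of the first. The iNS2 arrays read 8.42, 8.32 and 8.50, those of iNS3 8.74, 8.71, 8.69 and 8.62, and those of iNS5 7.42, 7.76, 7.88 and 7.47. NS read 7.83, 7.81 and 7.62 and MEF 4.91, 5.26, 5.14 and 5.57, with only MEF replicate 4 above background. iNS3 and iNS2 lay above iNS5 and NS without overlap, as with Ncan, while on ILMN_1259579 the 3 clones averaged 11.37, 11.29 and 11.42 and the arrays of iNS2 overlapped those of both others. The clones exceeded MEF at least 6.34-fold on ILMN_1257842 (3.03 ± 0.47 SE, limma adjusted p = 0.011). That p-value is given as description, since ILMN_1257842 passed the detection filter only through the clones and NS. Within slide 4, with 1 array each of iNS3, iNS5 and MEF and none of iNS2, the difference was 2.45 and not called. iNS3 exceeded iNS5 by 1.06 ± 0.12 SE on it (2.08-fold), and treat against 2-fold did not call it (adjusted p = 1.0).

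Tenascin-C (Tnc), an adhesion-modulating glycoprotein, was among the brightest probes of MEF and stayed bright in the neural lines. ILMN_2463181 was at 12.91, 12.77 and 12.81 in iNS2. The iNS3 arrays read 12.55, 12.63, 12.60 and 12.73, and the iNS5 arrays 12.68, 12.64, 12.63 and 12.79. NS read 11.45, 11.67 and 11.65, ES 5.09, 4.64 and 4.70, and MEF 15.05, 15.12, 15.05 and 15.05. The clones lay between MEF and NS with no overlap on either side, and ES was at background. Relative to MEF the clones were 5.11-fold lower (-2.35 ± 0.19 SE, limma adjusted p = 0.0023), NS 11.2-fold lower (-3.48 ± 0.09 SE, treat adjusted p = 1.5e-15) and ES at least 806-fold lower. ILMN_2463180 gave 5.81-fold lower in the clones and 11.6-fold lower in NS. On the MEF arrays these 2 probes ranked between the brightest and the eighth brightest of all probes, at signals of 31282.5 to 35609.6, and whether the scanner's upper limit bears on these folds was not tested.

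The other Tnc probes were dimmer and gave the same direction. ILMN_2485085 lay at 7.79 to 8.86 on the clone arrays and at 7.37, 7.35 and 7.02 in NS, against 11.07, 10.99, 10.91 and 10.87 in MEF. It was 5.74-fold lower in the clones (limma adjusted p = 0.013) and 13.1-fold lower in NS than in MEF. ILMN_1236724 was 8.02-fold lower in the clones (-3.00 ± 0.34 SE, limma adjusted p = 0.0050) and 15.01-fold lower in NS. ILMN_2567596 was 5.78-fold lower in the clones (limma adjusted p = 0.0027), and at background in NS (at least 10.3-fold lower). On the 4 Tnc probes above background on all clone, NS and MEF arrays, each clone lay between MEF and NS, at 0.59 to 0.86 of the MEF to NS distance.

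The 2 dimmest Tnc probes had the least certain calls. ILMN_1251943 was above background on 7 of 11 clone arrays, on those of iNS2 and iNS5 but on none of iNS3 or NS. Clone levels were at least 4.50-fold under MEF (limma adjusted p = 0.019), and without iNS2 its adjusted p was 0.062. ILMN_2454497 passed the detection filter through MEF alone. On it the clones were at least 2.69-fold under MEF (limma adjusted p = 0.0078), and without iNS2 its adjusted p was 0.052. In iNS5 against MEF it was not called without MEF replicate 1 or 4 (treat adjusted p = 0.089 and 0.077) or without iNS5 replicate 1, 2 or 4 (0.066, 0.060 and 0.055). In iNS2 against MEF it was not called without iNS2 replicate 3 (treat adjusted p = 0.054). Without iNS2 the clones against MEF gave 15 called probes of 18, where 3191 of all 15972 were called.

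**Figure D3:**
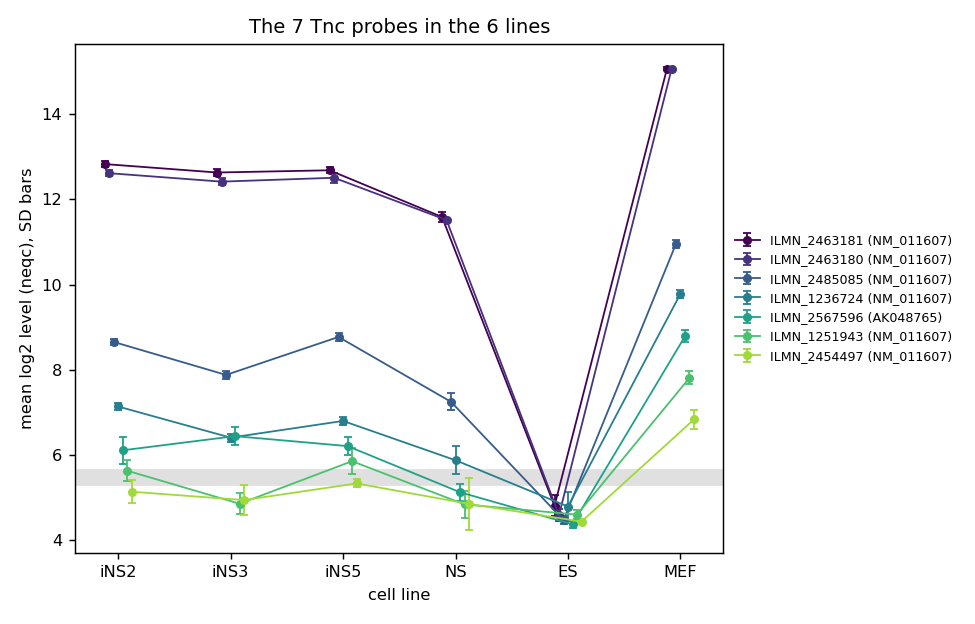
Mean log2 level (vertical axis, neqc) of the 7 Tnc probes in the 6 lines (horizontal axis), with SD bars over the arrays of a line, the transcript of each probe in the legend and a grey band at the range of the dimmest detected probe per array. Every probe is highest in MEF and at background in ES, and on the 4 probes above background on all clone, NS and MEF arrays the clones lie between MEF and NS.

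Each clone was also set against MEF alone. iNS2 and iNS5 gave 7 higher and 11 lower probes of 18, where 34.4% (17.3% higher, 17.1% lower) and 36.3% (18.5% higher, 17.8% lower) of all probes were called. iNS3 gave 7 higher and 10 lower, where 33.1% were (16.6% higher, 16.5% lower). Slides moved with the lines, and with slide as a fixed block the lower calls were 8 in iNS2, 9 in iNS3 and 7 in iNS5, with the 7 higher in each. That setting also called fewer of all probes, 26.7% in iNS2, 26.6% in iNS3 and 29.6% in iNS5. The calls lost were those of dim Vcan and Tnc probes, among them Tnc ILMN_1251943 in iNS2 (-1.73, treat adjusted p = 0.11) and in iNS5 (-1.76, adjusted p = 0.051). Differences from NS were smaller. As a group the clones differed from NS on 0 of 18 probes in limma, where 0.0563% of all probes were called. Unadjusted, 7 of the 18 had a limma p under 0.05. The share of all probes under that unadjusted limit was not counted, so the 7 are given as description. One fit of all arrays also called 0, where 1.63% of all probes were called. The median difference of the 18 was 0.50 on the log2 scale, against -0.01 over all probes. A missed call does not show that levels were equal.

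Tnc ILMN_2485085 had the largest mean difference from NS, 1.19 (95% interval 0.04 to 2.33, limma adjusted p = 0.93). Tnc ILMN_2463181 was 2.18-fold higher in the clones (1.13, interval 0.61 to 1.64, limma adjusted p = 0.50) and ILMN_2463180 1.997-fold (0.998, interval 0.49 to 1.51, adjusted p = 0.51), with clone and NS arrays apart on both. Bcan ILMN_2670486 differed by 0.48 (interval 0.01 to 0.95, limma adjusted p = 0.94), Cspg5 ILMN_2732634 by 0.43 (interval -0.04 to 0.90, adjusted p = 0.98) and Ptprz1 ILMN_1259579 by -0.28 (interval -0.77 to 0.20, adjusted p = 1.0). None of these passed the test, and of the brightest probes only that of Ptprz1 had a lower mean in the clones than in NS.

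Clone by clone, treat called 2 higher probes in iNS2 against NS, where 1.90% of all probes were called (0.614% higher, 1.29% lower). It called 1 in iNS3 (1.96%, of which 0.789% higher and 1.17% lower) and 1 in iNS5 (2.79%, of which 1.39% higher and 1.40% lower), with no member lower in any of them. The calls were Ncan in iNS2 and iNS3, and Tnc ILMN_2485085 in iNS2 (1.41 ± 0.09 SE, adjusted p = 0.011) and iNS5 (1.52 ± 0.09 SE, 2.87-fold, adjusted p = 0.0003). In iNS3 this Tnc probe was 0.63 above NS and not called (treat adjusted p = 1.0). The iNS2 call was lost without iNS2 replicate 2 (1.37, treat adjusted p = 0.071) or NS replicate 3 (1.29, adjusted p = 0.11). It was also lost with slide as a block (1.47, adjusted p = 0.44) and with arrays scaled to a common median (1.46, adjusted p = 0.059). Within slide 4, with 1 iNS5 array, the iNS5 difference was 1.56 (treat adjusted p = 0.44). Tested against no change instead of 2-fold, limma called 14 of 18 probes in iNS2 against NS, where 31.1% of all probes were called, 13 in iNS3 (47.0%) and 11 in iNS5 (45.5%).

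Between clones, Ncan was the only member that treat called. Treat called 0 of 18 probes in iNS2 against iNS3, where 0.939% of probes were called. Unadjusted, 0 of the 18 had a treat p under 0.05, with no share over all probes counted at that limit. Limma against no change called 6, where 36.5% of all probes were called. In iNS2 against iNS5 treat called 1 (1.61% of all probes) and in iNS3 against iNS5 1 (4.30%).

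**Figure D4:**
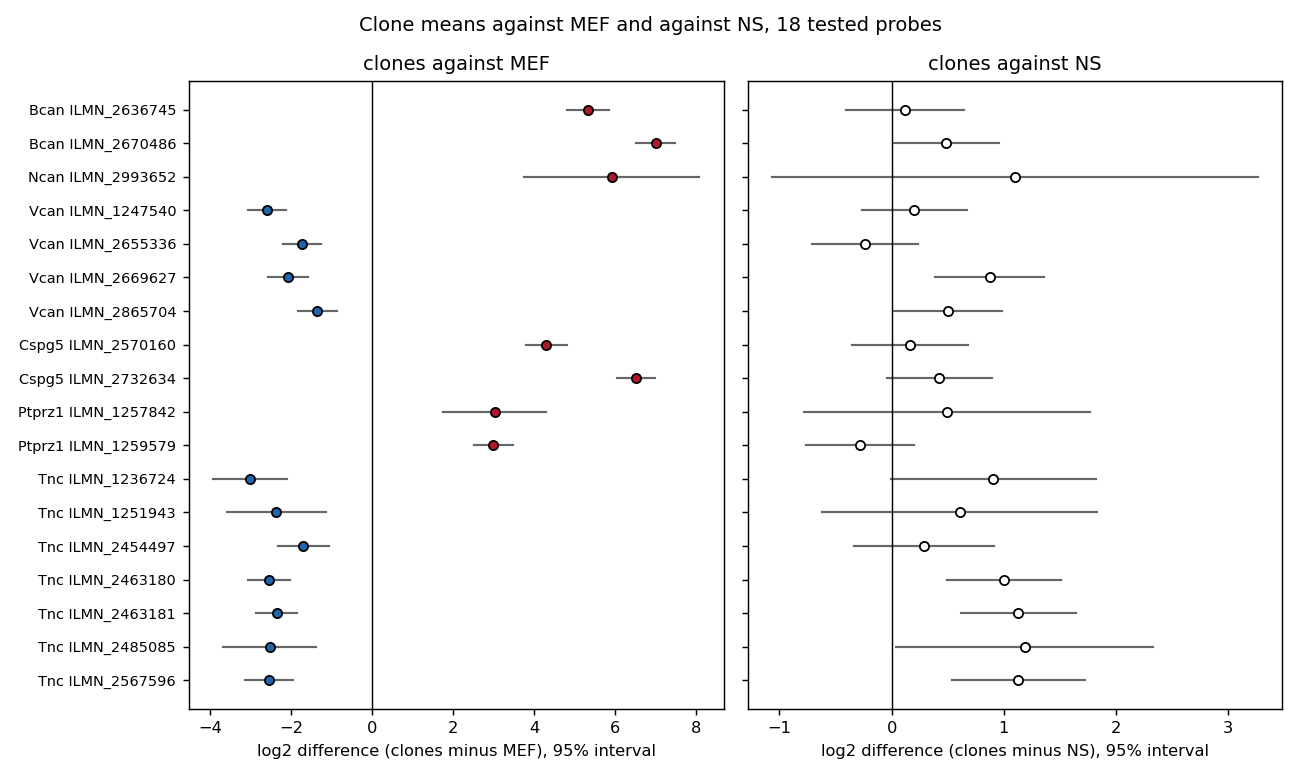
Log2 difference (horizontal axis) with its 95% interval for the 18 tested probes, clones minus MEF on the left and clones minus NS on the right, where red is called higher, blue called lower and white not called at a limma adjusted p under 0.05. All 18 are called against MEF and none against NS, and the Ncan interval is the widest in both panels.

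ES, the pluripotent line, was near background on nearly all of these probes. No tested member passed the detection filter through ES, so few could be higher there. The counts against ES are therefore given as description. The clones exceeded ES on 13 of 18 probes with none lower, where 39.3% of all probes were called (19.2% higher, 20.1% lower). NS exceeded ES on 10 with none lower, where 29.2% were called (15.5% higher, 13.7% lower). Without iNS2 the clones against ES gave 11, where 16.3% of all probes were called, having lost Vcan ILMN_2669627 (limma adjusted p = 0.11) and Tnc ILMN_1236724 (0.052). ES against MEF gave 0 higher and 11 lower, where 43.0% were called (21.9% higher, 21.2% lower), namely all 7 Tnc probes, 3 Vcan probes and Ptprz1 ILMN_1259579. Bcan and Cspg5 were at background on every ES and MEF array, as was Ncan. Only 1 member probe, Vcan ILMN_2865704, was above background on any ES array, on 1 of 3. On Bcan ILMN_2670486 the clones exceeded ES at least 68.2-fold and NS exceeded ES at least 48.9-fold. On Tnc ILMN_2463181 the clones exceeded ES at least 158-fold and NS exceeded ES at least 72.2-fold.

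Genes that make, cut or bind these molecules were grouped in 7 lists, each gene by its brightest tested probe. Among the genes named below, Chst3, Timp4, Cntn1, Nrcam, Gpc2, Ptprf and Rtn4rl1 did not pass the detection filter through MEF. Chst15, Sdc1 and Tnn passed it through MEF alone. Calls of these genes, and the list counts that hold them, are thus given as description. Against MEF, 45.6% of all 10449 genes were called in the clones, 23.0% higher and 22.6% lower, and their median difference was 0.07. Of the enzymes and receptors of hyaluronan, the sugar that lecticans bind, 0 of 7 tested genes were higher and 3 lower, with a list median of -1.48. Cemip, which starts hyaluronan breakdown, was 117-fold lower in the clones (limma adjusted p = 0.00078), at a mean of 7.25 against 14.11 in MEF. The hyaluronan receptor Cd44 was 12.2-fold lower and the synthase Has2 at least 6.61-fold lower.

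Of the chondroitin sulfate synthesis enzymes, 2 of 14 tested genes were higher and 8 lower in the clones, with a median of -0.88. The higher genes were Chst7 and Chst3, which add sulfate to the 6-hydroxyl of chondroitin. Chst7 was 53.9-fold higher in the clones, at a mean of 11.96 against 6.21 in MEF, and Chst3 was at least 8.48-fold higher (limma adjusted p = 0.026). Chst12, which sulfates the 4-hydroxyl, was at least 6.41-fold lower, and Chst15, which acts on 4-sulfated chains, at least 10.6-fold lower. Without iNS2 the list had 1 higher and 4 lower genes. That setting also called fewer of all 15972 tested probes, 3191 against 6913 with iNS2 included. The list counts genes whereas these totals count probes, and the cause of the smaller list count was not tested. Within slide 4, MEF had 1 array, so calls of the list there are not weighed.

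Of the lectican-cleaving proteases and their inhibitors, 1 of 7 was higher and 5 lower, with a median of -2.07. Timp4, the metalloprotease inhibitor known from brain and heart, rose at least 36.6-fold in the clones, at a mean of 10.76 against 4.61 in MEF. Timp1, Timp3 and Timp2 were 21.3-fold, 15.99-fold and 8.50-fold lower. Of the binding partners of lecticans and tenascins, 1 of 12 was higher and 6 lower (median -1.48). Fibronectin (Fn1) was 56.8-fold lower in the clones, at 7.37 against 13.20 in MEF, and the fibulins Fbln2 and Fbln1, which bind the lectican end that tenascins bind, were 9.17-fold and 5.96-fold lower. Syndecan-1 (Sdc1) was at least 7.78-fold lower.

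Of the Ptprz1 ligands and neural adhesion partners, 3 of 5 were higher and 1 lower (median 2.22). Pleiotrophin (Ptn), a secreted ligand of Ptprz1, was 4.67-fold higher in the clones, at 14.26 against 12.04 in MEF (limma adjusted p = 0.0020). Its relative midkine (Mdk) fell at least 26.5-fold, at 5.50 against 10.28. The adhesion molecules Cntn1 and Nrcam were at least 12.9-fold and at least 14.7-fold higher. Of the other membrane proteoglycans and tenascins, 1 of 7 was higher (Gpc2, at least 1.78-fold) and 3 lower, namely Gpc3 (at least 24.6-fold), Gpc4 (at least 10.6-fold) and tenascin-N (Tnn, at least 2.37-fold). Without iNS2 that list had 0 higher and 2 lower, where 3191 of all 15972 tested probes were called, against 6913 with iNS2 included. Within slide 4, MEF had 1 array, so calls of the list there are not weighed. All 3 tested receptors of chondroitin sulfate proteoglycans were higher, namely Ptprs (1.74-fold), Ptprf (at least 2.72-fold) and Rtn4rl1 (at least 1.62-fold). Without iNS2 only 1 of these receptors was called, in the same setting that called 3191 of all probes instead of 6913.

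Relative to NS, limma called 0 genes of any of the 7 lists in the clones, where 0.0574% of all genes were called. A fit of all arrays called 1 gene each in the protease and the Ptprz1 ligand lists, where 1.63% of all probes were called. Among the 26 named genes the largest difference in means was that of Cntn1 (1.56, limma adjusted p = 0.92), at 9.61, 8.53 and 9.62 in iNS2, iNS3 and iNS5, against 7.69 in NS.

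**Figure D5:**
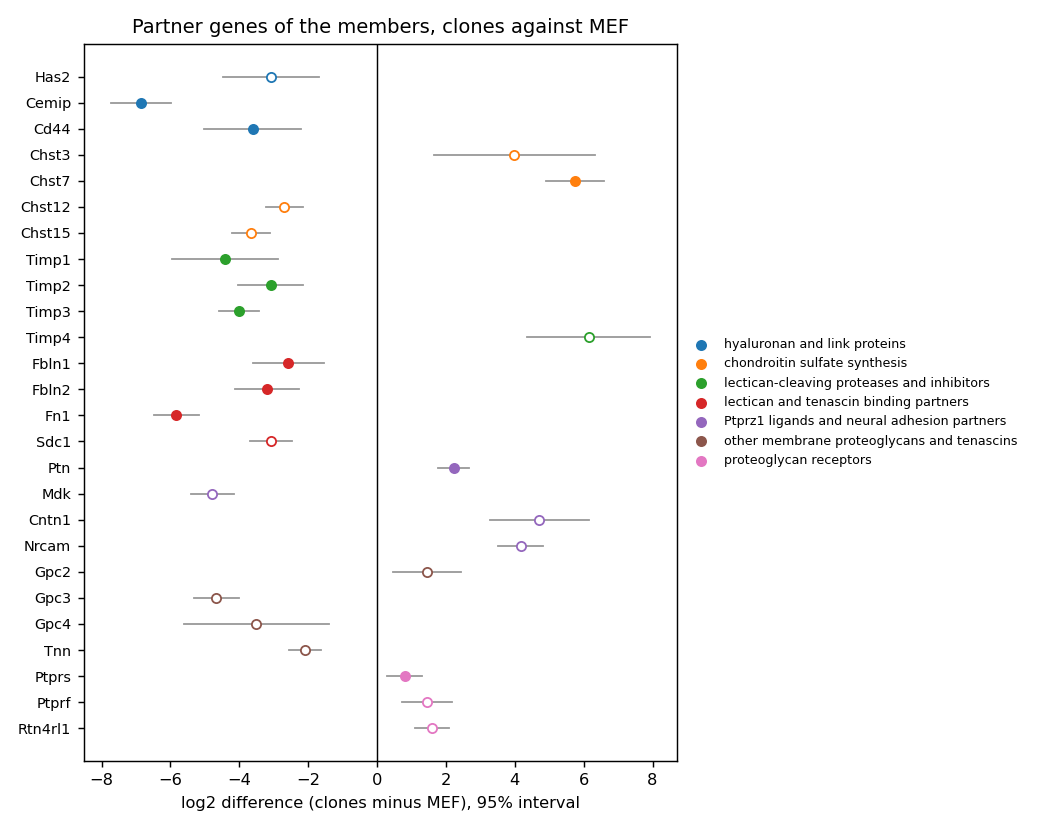
Log2 difference, clones minus MEF (horizontal axis), with its 95% interval for the 26 named partner genes coloured by list, filled where both sides were above background on all arrays and open otherwise. Cemip and Fn1 lie lowest, Timp4 and Chst7 highest.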

How the data were processed

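Total RNA of 6 mouse lines was hybridised to 21 bead arrays. The deposited scanner table gives each probe's intensity as a mean bead signal on a linear scale, with background included. Per the file headers, further columns hold the detection p-value, the bead count per probe (20 to 67 for the members) and the bead standard error, a score of spread in intensity units. A second deposited table holds the authors' scaled intensity. Set against the scanner signal, every column of it followed 1 linear relation (largest residual 0.115), with background removed and a common mean of 379.2 (medians 6.7 to 8.3). Nothing was centred per gene, and how background was estimated is unknown. GenomeStudio is named in the submitters' processing notes, without a version. Of all probes, 34885 carried 1 gene symbol, 18 several and 10378 none, from the platform annotation. RefSeq identifiers matched 34807 probes and changed 0 symbols. All value columns matched a sample, and 0 array pairs held identical values.

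Here, neqc of limma 3.58.1 (R 4.3.3) corrected the deposited intensity values for background, with controls inferred from detection p-values, and quantile normalised them after an offset of 16, giving log2 levels. A probe was tested if it carried 1 symbol and had a detection p-value under 0.01 on every array of at least 1 line. Lines were compared in 1 limma fit of all arrays (15 residual degrees of freedom) with treat against 2-fold. The clones as a group were compared by 1 mean profile per line (2 residual degrees of freedom) with eBayes against no change, two-sided, which takes the lone line to vary as the clones do. Calls needed a Benjamini-Hochberg adjusted p under 0.05 over all 15972 tested probes. A fold against arrays at background is a bound, with each such array set at no less than its dimmest detected probe. Slides held MEF 1 to 3 (slide 1), iNS2 and iNS3 1 to 3 (slide 2), iNS5 2 to 4 and ES (slide 3), and iNS3 4, iNS5 1, NS and MEF 4 (slide 4). The number of arrays and clones limits the precision. Partner genes were represented by the brightest tested probe, and up to 4 called genes of a list with the largest difference in the clones against MEF or NS were named. The members, lists and tests were chosen with earlier results of these data known. Alternatives were scaling to a common median, the authors' scaled table, an offset of 50, no detection filter or one at 0.05, 1 probe per gene, slide as a block, within slide 4, a test against no change, 1 fit of all arrays for the clones, and leaving out each array or clone. Tests were run on simulated data, where a pass was required only of NS against MEF. For the clone test the simulated spread between lines was smaller than that of the Ncan clone means (SD 0.98).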

Additional observations from a re-analysis of the deposited data

Results flagged for a closer look

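Of 38 sets of 4 arrays of a line examined, 3 held an array apart from the other 3 by Dixon's criterion, which chance alone meets in about 1 of 20 sets. On Bcan ILMN_2636745, iNS3 replicate 4 was the highest at 10.19, where the iNS3 arrays started at 9.99. On Tnc ILMN_2463180, iNS5 replicate 3 was the lowest at 12.33, where the iNS5 arrays reached 12.58. On Tnc ILMN_2463181, MEF replicate 2 was the highest at 15.12, where the MEF arrays started at 15.05. Ncan ILMN_2993652 changed by different amounts in the clones relative to MEF, with iNS2 1.48 and iNS3 1.85 above iNS5 on the log2 scale by treat against a 2-fold difference.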

How the results depend on the processing

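Of 4068 values of single member probes under an alternative, 3938 kept their direction and their side of the threshold, 73 lost a call, 57 gained one and 0 reversed. Scaling arrays to a common median shifted the median of all probes against MEF to 0.30 in the clones and 0.39 in iNS5, against 0.14 and 0.12 after quantile normalisation, and gave 4004 higher and 2814 lower probes in the clones (3568 and 3345 after quantile normalisation) and 3775 and 2206 in iNS5 (2959 and 2843). It called 1 member in iNS2 against NS and 0 in iNS2 against iNS5, where 1.53% and 1.66% of all probes were called. With only the brightest probe per gene, 6 genes replaced the 18 probes. Against MEF the calls were 6 in NS, iNS2, iNS3, iNS5 and the clones. Of all genes, 34.0%, 36.0%, 35.5%, 37.4% and 47.0% were called there. ES against MEF gave 3 (44.9% of all genes), the clones against ES 6 (44.0%) and NS against ES 5 (31.8%). Against NS the calls were 1 in iNS2 (2.32%) and 0 in iNS5 (3.23%). Tnc ILMN_2485085, called in iNS2 and iNS5 against NS among the 18, was not among these 6 probes. Slide as a fixed block called 0 in iNS2 against NS and 0 in iNS2 against iNS5, where 1.14% and 0.839% of all probes were called. An offset of 50 called 1 in iNS2 against NS, where 1.31% of all probes were called. Within slide 4, iNS3 and iNS5 had 1 array each, so calls of their comparisons there are not weighed. Tested against no change, the calls were 14, 13 and 11 in iNS2, iNS3 and iNS5 against NS, 6 in iNS2 against iNS3, 3 in iNS2 against iNS5 and 5 in iNS3 against iNS5, where 31.1% to 59.2% of all probes were called. Leaving out 1 array or clone gave 17 to 18 calls in NS, iNS2, iNS3 and iNS5 against MEF, 15 to 18 in the clones against MEF, 11 to 14 in the clones against ES and 1 to 2 in iNS2 against NS, and left the other counts as they were. Of 483 counts over the lists, 464 were within 1.5 times and 19 were not. Slide adjustment, slide 4 for the clones and MEF replicate 4 left out of the clone comparison were added after the data were seen. No paired analysis was possible because the labels give no replicate numbers. The cause of each change not named here was not tested. Levels near background limit the Vcan and dim Tnc probes.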

Other observations

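Other genes whose line means followed those of a member most closely were found by the root mean square difference of centred log2 means over the 6 lines. For Bcan ILMN_2670486 they were Astn1 (0.16), the member Cspg5 (0.22) and Fam181b (0.23), and for Cspg5 ILMN_2732634 they were Slc15a2 (0.16), Gpm6a (0.16) and Pantr1 (0.20). For Ncan the closest were 4922502B01Rik (0.37), Nxph1 (0.49) and Wnt7a (0.50), and for Ptprz1 ILMN_1259579 they were Mylk (0.33), Sox9 (0.45) and Egfr (0.46). Both bright Tnc probes had no gene nearer than Tmem176b (0.82 and 0.80), followed by Fbln2 and Timp2. The closest patterns to Vcan ILMN_1247540 were those of Abcc3 (0.05), Sh3tc2 (0.06) and Il1a (0.06). These lists are descriptions over 6 means that share normalisation and arrays.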
